A study of Mus musculus with 24 samples.

Results

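Genes that mark the stroma and the vessels of lymph nodes were followed in mouse adipose tissue, 7 in number, to judge how much lymph node tissue each sample held. They are the chemokine genes Ccl19, Ccl21a and Cxcl13, Glycam1 of the high endothelial venules, the cytokine gene Tnfsf11, the Fc receptor gene Fcamr and the addressin gene Madcam1. The 7 genes are 7 of the 19494 genes that the arrays name by a single symbol, and each was read from the probe set that carries its symbol alone. They were chosen from these same arrays, on their levels in subcutaneous and visceral samples, so those levels are given as a description and no test of them is used. RNA was measured on 24 Affymetrix arrays from 12 mice, each of which gave a subcutaneous and a visceral sample. The source entry of the subcutaneous samples names inguinal and visceral depots together, and depots were taken from the tissue entry. The aP2-Tagln2 transgene was present in 3 females (60, 135 and 173) and in 3 males (106, 130 and 158). Wild-type mice were 3 females (140, 169 and 170) and 3 males (159, 161 and 162), so genotype, sex and depot make 8 groups of 3 samples. Tagln2 encodes the actin-binding protein transgelin-2. The aP2 promoter is that of Fabp4, a gene of adipocytes that macrophages can also express. No treatment, strain or age is given for any group. The visceral depot is labelled epididymal in females too.

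The inguinal fat pad of the mouse holds a lymph node, and in females it also holds a mammary gland, while lymphoid clusters without a capsule lie in visceral fat. In a lymph node, fibroblastic reticular cells and vessels make Ccl19 and Ccl21, which draw T cells and dendritic cells through the receptor Ccr7. Follicular stroma makes Cxcl13, which draws B cells through Cxcr5. High endothelial venules, the vessels through which lymphocytes leave the blood, make the glycoprotein that Glycam1 encodes, and Glycam1 is also a milk protein gene of mammary epithelium. Tnfsf11 encodes RANKL, the ligand of Tnfrsf11a, and Tnfrsf11b encodes its soluble decoy receptor. Madcam1 binds the integrin made of Itga4 and Itgb7 and marks the vessels of gut-associated lymphoid tissue. Fcamr encodes a receptor for the constant part of IgA and IgM and is known from follicular dendritic cells.

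The bases upstream of the start sites are shown for the members on which the results turn. RefSeq promoter windows of GRCm38.p6 were matched by symbol for 7 of the 7 members. The 250 bases before the start are printed 5′ to 3′ on the gene's own strand for the 4 members that spanned the widest ranges over the arrays (Glycam1, Cxcl13, Ccl19 and Ccl21a) and for Madcam1, whose level was low on every array. Capitals mark matches, on either strand, to the CCAAT box, to the core promoter motif TATAAA, to AGGAAG (a core that Ets factors read) and to the κB consensus. The windows are chr15:103565082-103565331 (minus strand) for Glycam1, chr5:95956689-95956938 (plus strand) for Cxcl13, chr4:42756366-42756615 (minus strand) for Ccl19, chr4:42773992-42774241 (minus strand) for Ccl21a and chr10:79664309-79664558 (plus strand) for Madcam1.
Glycam1: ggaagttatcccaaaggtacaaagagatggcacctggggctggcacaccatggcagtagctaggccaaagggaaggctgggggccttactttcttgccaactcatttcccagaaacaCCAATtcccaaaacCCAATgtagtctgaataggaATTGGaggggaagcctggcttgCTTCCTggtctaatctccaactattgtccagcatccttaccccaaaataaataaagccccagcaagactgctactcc
Cxcl13: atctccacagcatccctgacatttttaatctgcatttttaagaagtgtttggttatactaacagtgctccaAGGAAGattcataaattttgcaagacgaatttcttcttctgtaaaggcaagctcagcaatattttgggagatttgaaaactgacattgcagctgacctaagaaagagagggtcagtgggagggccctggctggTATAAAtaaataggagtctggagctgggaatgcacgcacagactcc
Ccl19: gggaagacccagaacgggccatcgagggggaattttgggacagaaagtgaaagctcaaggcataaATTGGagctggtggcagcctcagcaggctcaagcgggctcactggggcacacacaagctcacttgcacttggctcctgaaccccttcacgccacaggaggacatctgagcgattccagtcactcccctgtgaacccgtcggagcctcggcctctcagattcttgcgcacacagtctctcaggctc
Ccl21a: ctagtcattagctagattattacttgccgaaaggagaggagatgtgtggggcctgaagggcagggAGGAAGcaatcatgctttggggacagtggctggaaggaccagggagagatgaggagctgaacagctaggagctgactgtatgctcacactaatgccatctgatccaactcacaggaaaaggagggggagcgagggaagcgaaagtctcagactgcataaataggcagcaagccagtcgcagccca
Madcam1: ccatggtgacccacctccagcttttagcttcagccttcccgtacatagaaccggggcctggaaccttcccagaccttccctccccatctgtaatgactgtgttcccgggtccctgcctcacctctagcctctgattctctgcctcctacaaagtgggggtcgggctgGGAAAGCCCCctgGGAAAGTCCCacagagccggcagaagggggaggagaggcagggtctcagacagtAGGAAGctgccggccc
Glycam1 held 3 matches to CCAAT, between 133 and 95 bases before the start, and 1 to AGGAAG on the other strand. Cxcl13 held TATAAA from 46 to 41 bases before the start, and AGGAAG from 179 to 174. Ccl19 held a single CCAAT match, 185 to 181 bases upstream, and Ccl21a a single AGGAAG match that begins 185 bases upstream. The κB consensus matched Madcam1 at 2 places (83 to 74 and 70 to 61 bases upstream) and Fcamr at 1, and none of the other 5 members. Of 32851 promoter windows of the same length, 33.8% held CCAAT, 12.4% TATAAA, 29.5% AGGAAG and 7.25% the κB consensus. AGGAAG matched 6 of the 7 windows (all but that of Ccl19), CCAAT 3 and TATAAA 2. No motif searched was in all 7 windows, and a match or its absence describes these letters alone. The Ccl21a window and that of its copy Ccl21d agreed at 297 of 299 bases when shifted by 1 base, and the windows of Gm13304 and Gm10591 each at 296 of 299. That of Ccl21b agreed at 87 of 259 bases at its best shift, of 41 bases.

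The arrays were alike in level, with medians between 5.45 and 5.67 (log2 RMA intensity). Their spread was narrowest in mouse 158, subcutaneous, with a standard deviation of 1.46, and widest at 1.82. The transgene checked the labels: Tagln2 lay between 9.13 and 11.48 in the aP2-Tagln2 samples and between 7.22 and 8.78 in the wild-type samples. The 2 libraries of mouse 60 went against their depot labels. The library labelled visceral had 4.39 of the mesothelial gene Upk3b and 9.44 of the milk gene Csn3, and the library labelled subcutaneous had 7.59 and 3.05. Both were kept as labelled. Counts of mice and, for Glycam1, Ccl19, Cxcl13 and Ccl21a, the depot differences of aP2-Tagln2 females and the genotype differences in subcutaneous tissue of females are also given without mouse 60, while the order of the groups, the ranges over arrays and the correlations include it. The adipocyte gene Adipoq passed the low-value filter on every array, whose level, the 40th percentile of each array, ran from 4.94 to 5.31. Background was not measured per probe set, so values under that level were read as low only, and all differences are kept on the log2 scale. In whole tissue, fewer cells of a type and less RNA per cell cannot be told apart.

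Glycam1 spanned a range of 7.34 log2 units over the arrays. In wild-type females the subcutaneous samples of mice 140, 169 and 170 stood at 10.44, 10.55 and 8.98, and the visceral samples at 3.59, 3.29 and 3.84. In wild-type males 159, 161 and 162 the subcutaneous values were 4.03, 3.70 and 3.74 and the visceral values 3.79, 3.51 and 3.67. The depots therefore lay far apart in wild-type females, with no overlap, while every wild-type male sample was under the filter. In aP2-Tagln2 females 135, 173 and 60 the subcutaneous values were 10.22, 3.49 and 4.24 and the visceral values 3.65, 3.53 and 3.61. In aP2-Tagln2 males 106, 130 and 158 they were 5.86, 8.07 and 3.95 in subcutaneous and 3.68, 3.28 and 3.22 in visceral tissue. Mouse 135 was thus at the level of the wild-type females, and mice 130 and 106 stood between them and the rest. In all, 6 of 12 subcutaneous and 0 of 12 visceral samples were above the filter. In the 6 mice with a subcutaneous value above the filter, the visceral value was the lower one in 6 of 6. In the other 6 mice both depots were under the filter and are not put in order. The signal of wild-type females differed between depots by -6.42 ± 1.13 (SD, n = 3), against visceral values that were all under the filter.

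**Figure D1:**
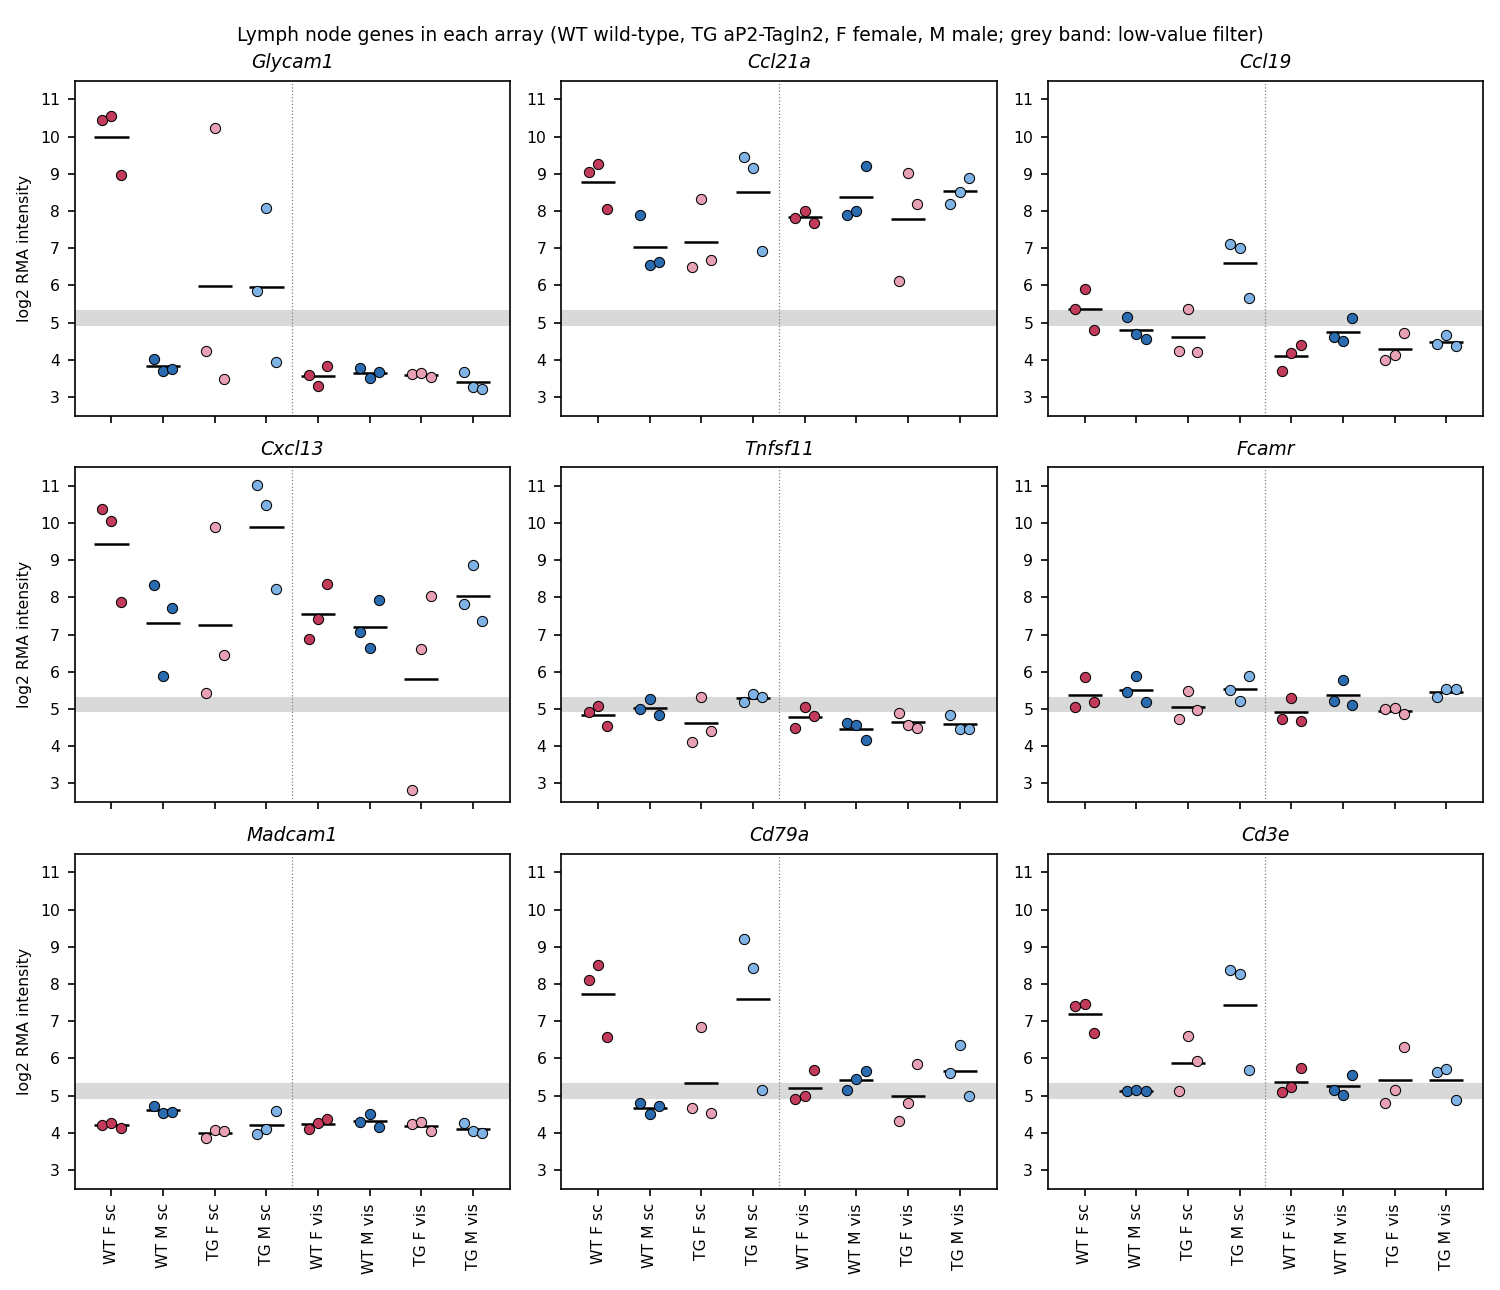
Log2 RMA intensity (y axis) of the 7 members and of the B cell gene Cd79a and the T cell gene Cd3e in each of 24 arrays, by group (x axis; points are single mice, bars group means, and the grey band spans the low-value filter, 4.94 to 5.31). Glycam1 is above the band in 6 subcutaneous and 0 visceral samples, while Ccl21a lies above it on 24 of 24 arrays and Madcam1 on 0.

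Ccl19 followed another order. Its 2 highest values were those of the subcutaneous samples of the aP2-Tagln2 males 106 (7.11) and 130 (7.02), and the third male, mouse 158, had 5.67. The wild-type females 140, 169 and 170 had 5.36, 5.90 and 4.80 in subcutaneous tissue, and 3.71, 4.19 and 4.40 in visceral tissue. These depots did not overlap, nor did those of the aP2-Tagln2 males, whose visceral values were 4.42, 4.66 and 4.36. The wild-type males 159, 161 and 162 had 5.15, 4.68 and 4.57 in subcutaneous and 4.61, 4.50 and 5.12 in visceral tissue. The aP2-Tagln2 females 135, 173 and 60 had 5.37, 4.20 and 4.24 in subcutaneous and 4.13, 4.73 and 3.99 in visceral tissue. In both of these groups the depots overlapped. The share of all genes without overlap was not counted. Nothing is therefore read from these overlaps or from that of Glycam1. The level was lower in visceral tissue in 10 of 12 mice, and 7 of 24 arrays were above the filter. Mice 60, 159, 161, 170 and 173 were under the filter in both depots, so their order, which that count includes, says little.

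Cxcl13 was above the filter on 23 of 24 arrays and so was measured in visceral tissue too. In subcutaneous tissue mice 106, 130, 140, 169 and 135 had 11.01, 10.48, 10.38, 10.05 and 9.89, and the other 7 mice had between 5.42 (mouse 60) and 8.35 (mouse 159). Visceral samples lay between 6.60 and 8.88, apart from the library of mouse 60 labelled visceral, which had 2.82. The spread within a group reached 2.33 (SD, n = 3) in subcutaneous tissue of aP2-Tagln2 females, whose mean was 7.26. Visceral levels were lower than subcutaneous levels in 8 of 12 mice, and among the exceptions was the wild-type female 170, with 7.87 in subcutaneous and 8.36 in visceral tissue.

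Ccl21a was above the filter on all 24 arrays and did not mark the subcutaneous depot. Wild-type females 140, 169 and 170 had 9.05, 9.26 and 8.05 in subcutaneous and 7.82, 8.0 and 7.67 in visceral tissue. Wild-type males 159, 161 and 162 had 7.89, 6.56 and 6.62 in subcutaneous and 7.89, 8.01 and 9.20 in visceral tissue. Visceral values were thus the lower ones in each of the wild-type females, and the higher ones in 2 of 3 wild-type males. The aP2-Tagln2 males 106, 130 and 158 had 9.46, 9.16 and 6.92 in subcutaneous and 8.19, 8.51 and 8.89 in visceral tissue. The aP2-Tagln2 females 135, 173 and 60 had 8.33, 6.68 and 6.50 in subcutaneous and 9.03, 8.18 and 6.13 in visceral tissue. Over all mice, 7 of 12 were lower in visceral tissue. The value cannot be assigned to 1 gene copy: the other probe sets named Ccl21b, Ccl21c, Gm10591 and Gm13304 correlated with that of Ccl21a at r between 0.948 and 0.990 over the 24 arrays, which share mice and probe sequence.

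**Figure D2:**
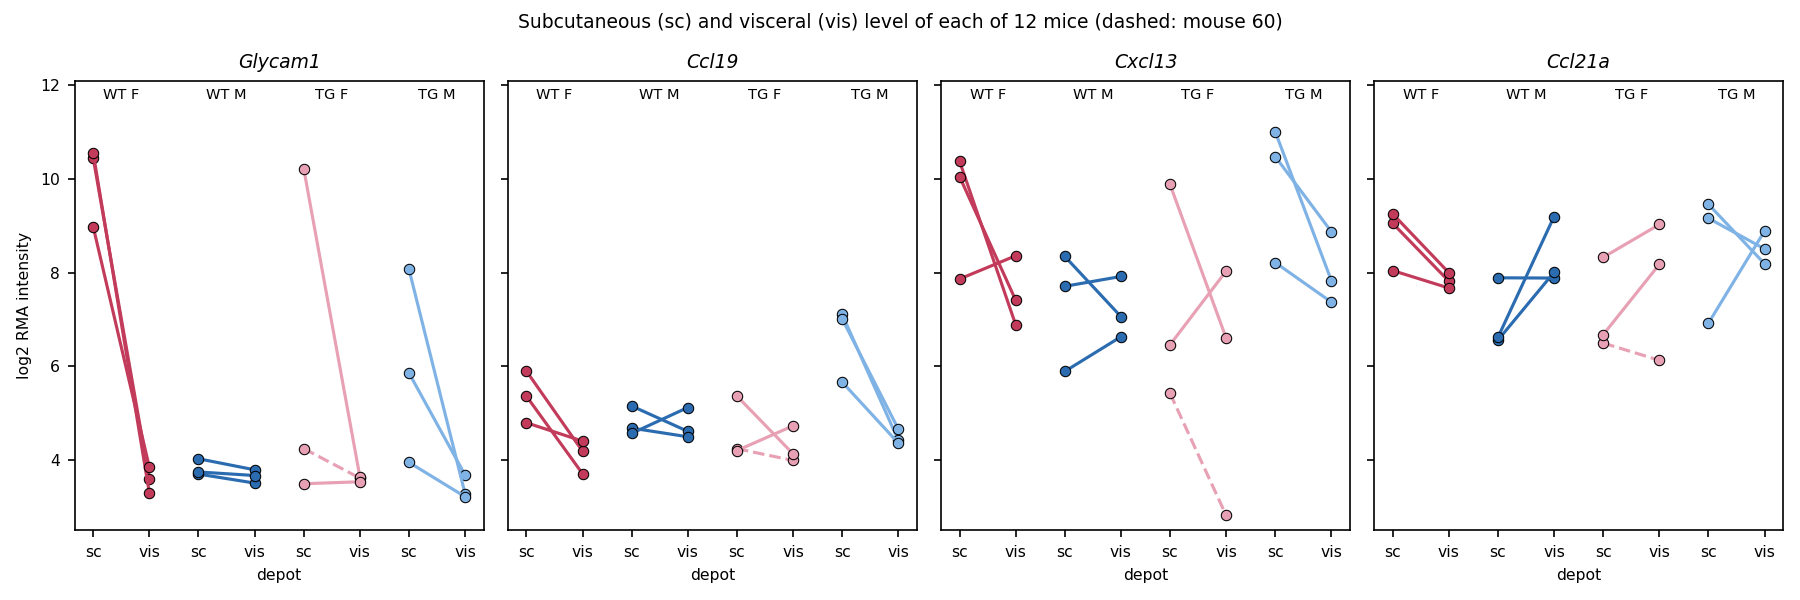
Log2 RMA intensity (y axis) of Glycam1, Ccl19, Cxcl13 and Ccl21a in the subcutaneous (sc) and visceral (vis) sample of each of 12 mice, joined by a line, by genotype and sex (x axis; WT wild-type, TG aP2-Tagln2, F female, M male; dashed, mouse 60). Glycam1 falls steeply in each wild-type female, and Ccl21a lines run down in wild-type females and mostly up in wild-type males.

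The other 3 members stayed near or under the filter. Tnfsf11 lay between 4.10 and 5.39 in subcutaneous and between 4.17 and 5.06 in visceral tissue. It was above the filter in 6 of 12 subcutaneous and 0 of 12 visceral samples, among them each aP2-Tagln2 male (5.18, 5.39 and 5.33 for mice 106, 130 and 158). Fcamr lay between 4.69 and 5.88 over all arrays, with 17 of 24 above the filter, and was lower in visceral tissue in 10 of 12 mice, by 0.46 ± 0.12 in wild-type females and by 0.14 ± 0.08 in wild-type males. In mice 60, 140 and 173 both depots were under the filter for Fcamr. Madcam1 lay between 3.87 and 4.72, under the filter on 24 of 24 arrays, so its level says little beyond being low. Its highest 3 values were those of subcutaneous samples of males (4.72 in mouse 159, 4.57 in mouse 158 and 4.55 in mouse 162). Without mouse 60, the visceral value was the lower one in 9 of 11 mice for Ccl19, 7 of 11 for Cxcl13, 6 of 11 for Ccl21a and 10 of 11 for Fcamr. For Ccl19 and Fcamr these counts include mice with both depots under the filter.

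When the 8 groups were put in order of their means, neighbours overlapped in 7 of 7 places for each member apart from Madcam1, where they overlapped in 6 of 7. For Glycam1 the order ran from wild-type females in subcutaneous tissue (9.99 ± 0.88) to aP2-Tagln2 females (5.99 ± 3.69) and males (5.96 ± 2.06) in that depot and then to the other 5 groups, between 3.39 and 3.82. For Ccl19 it ran from aP2-Tagln2 males in subcutaneous tissue (6.60 ± 0.81) and wild-type females there (5.35 ± 0.55) to wild-type females in visceral tissue (4.10 ± 0.36). Cxcl13 was also led by aP2-Tagln2 males in subcutaneous tissue (9.90 ± 1.48), and Ccl21a, like Glycam1, by wild-type females there (8.79 ± 0.65).

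Beside the lymphocyte genes of the same samples, the members differed in how closely they kept to them. Cd79a, a chain of the B cell receptor complex, had its highest levels in the subcutaneous samples of mice 106 (9.22), 169 (8.51), 130 (8.42), 140 (8.10), 135 (6.84) and 170 (6.57). The remaining 6 subcutaneous samples lay between 4.51 and 5.14, and the visceral samples between 4.31 and 6.35. Cd3e, a chain of the T cell receptor complex, stood at 8.37, 7.47, 8.26, 7.40, 6.61 and 6.67 in those first 6 samples and at 5.92 or less in the other 6. The 6 samples are also the ones with Glycam1 above the filter, but in another order: mouse 106, highest in Cd79a, Cd3e, Ccl19, Ccl21a and Cxcl13 among subcutaneous samples, was lowest of the 6 in Glycam1. Ccl21a kept closest to Cd79a in subcutaneous tissue (r = 0.957), with its 6 highest values in the same 6 mice. For Cxcl13, Ccl19 and Glycam1 r was 0.894, 0.826 and 0.760 there. Ccl19 and Cxcl13 did not keep to those 6 mice. Mice 158 (5.67 and 8.22) and 159 (5.15 and 8.35) stood above mouse 170 (4.80 and 7.87) for both genes. In visceral tissue the closeness of Ccl21a to Cd79a did not hold. Mouse 135 had 9.03 of Ccl21a there beside 4.81 of Cd79a, and mouse 158 had 8.89 beside 4.98.

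**Figure D3:**
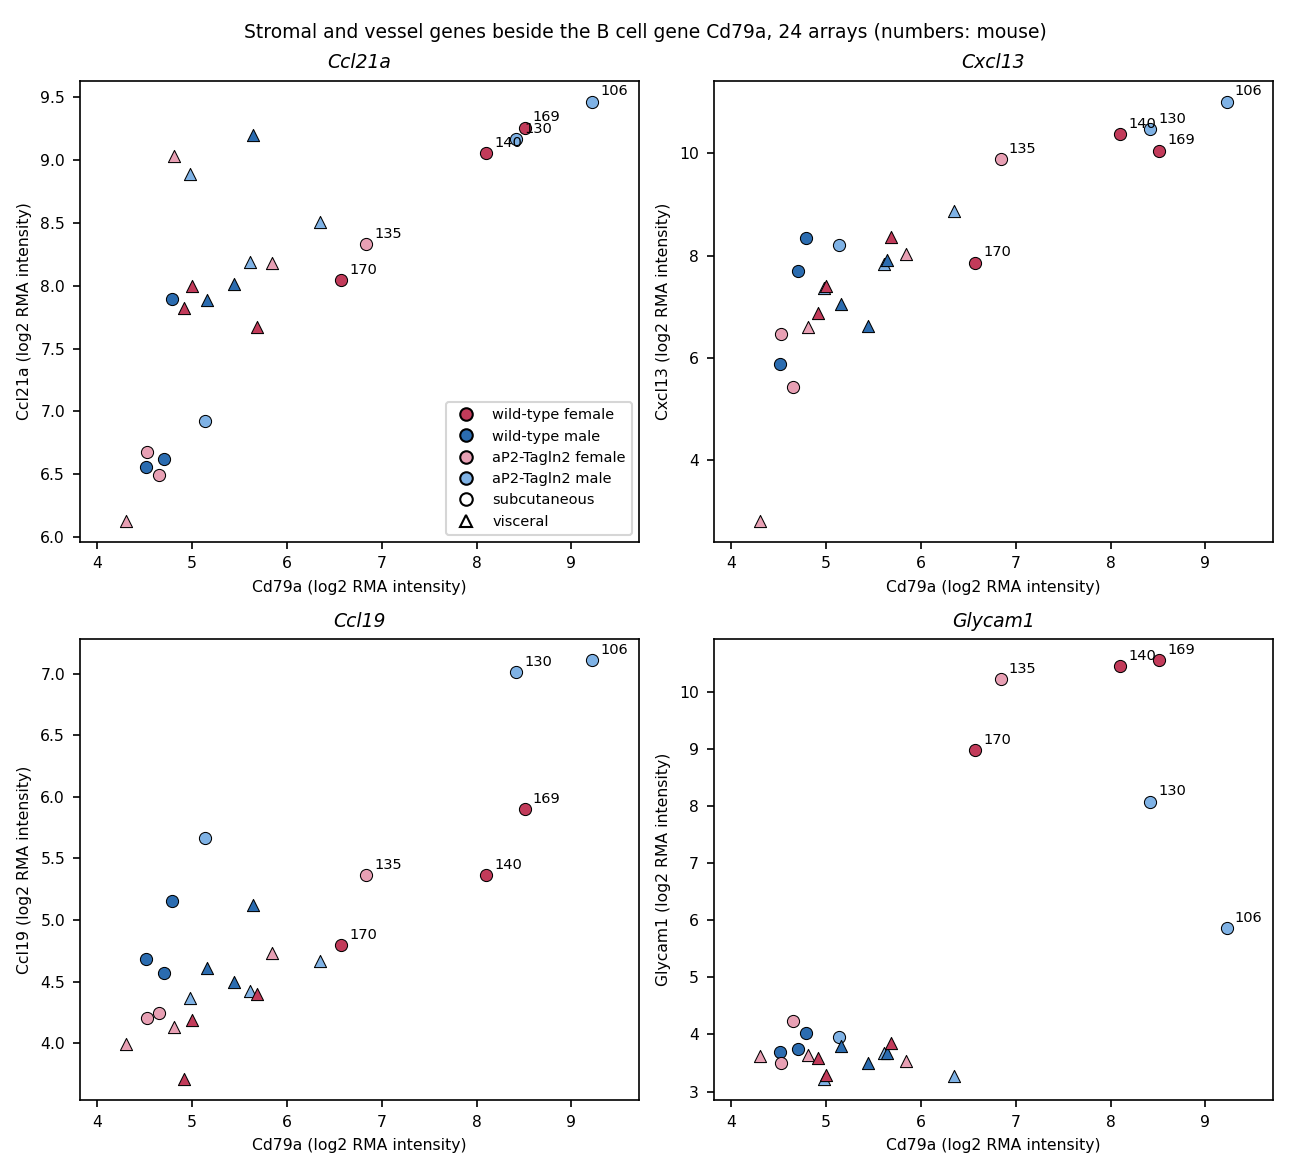
Log2 RMA intensity of Ccl21a, Cxcl13, Ccl19 and Glycam1 (y axes) against that of Cd79a (x axis) in 24 arrays (circles subcutaneous, triangles visceral; colours genotype and sex; numbers name the mice with the highest subcutaneous Cd79a). Mouse 106 has the highest Cd79a (9.22) with a Glycam1 of 5.86, while mice 140 and 169 have Glycam1 of 10.44 and 10.55.

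The wider lists of cell type genes gave the same 6 samples and showed what else they held. The mean of 11 B cell genes was 7.56 and 7.74 in mice 106 and 130, 6.85, 7.01 and 5.92 in mice 140, 169 and 170, and 6.12 in mouse 135, against 4.25 to 4.82 in the other subcutaneous samples and 4.37 to 5.16 in visceral ones. The mean of 5 macrophage genes of lymph node sinuses was 6.85 and 7.56 in mice 106 and 130, and between 4.99 and 6.30 in the other subcutaneous samples. Mammary epithelial genes divided them. The mean of 14 such genes was 6.35, 6.40, 5.99 and 6.26 in the females 140, 169, 170 and 135, whose Glycam1 was highest, and 4.33 and 4.39 in the males 106 and 130, whose Glycam1 was still above the filter. It was as high in the subcutaneous sample of mouse 173 (6.41) and in the library of mouse 60 labelled visceral (6.50), where Glycam1 was 3.49 and 3.61. So Glycam1 was above the filter with the mammary genes low and B cell genes high, and under it with the mammary genes high and B cell genes low. The 4 samples with the highest Glycam1 had both. The part of each tissue in the Glycam1 level of those 4 samples was not tested. Among the 14 mammary genes, the milk genes Csn1s1, Csn2 and Lalba were under the filter on every array. Group means of the milk gene Wap lay between 5.77 and 6.26.

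**Figure D4:**
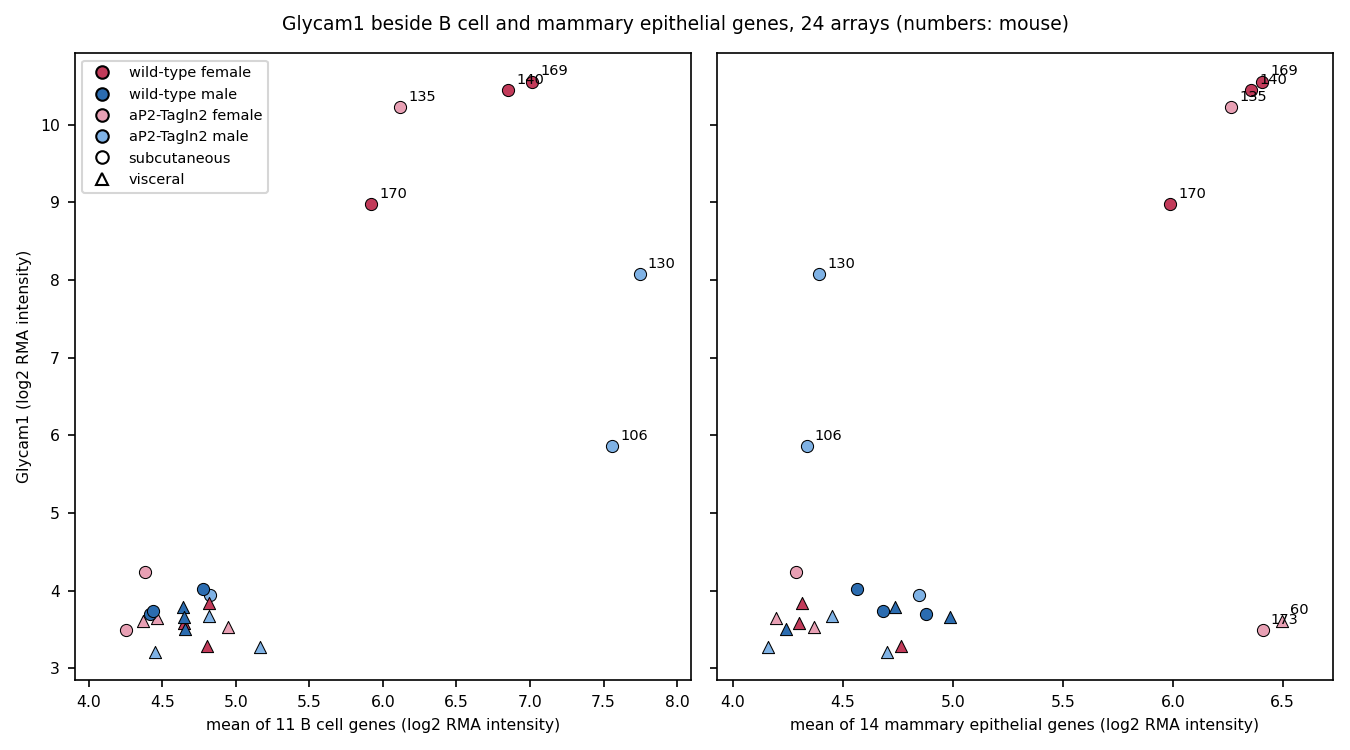
Log2 RMA intensity of Glycam1 (y axes) against the mean log2 intensity of 11 B cell genes (left) and of 14 mammary epithelial genes (right) in 24 arrays (circles subcutaneous, triangles visceral; numbers are mice). Mice 106 and 130 have Glycam1 above the filter at low mammary means (4.33 and 4.39), and mice 173 and 60 have high mammary means (6.41 and 6.50) at low Glycam1.

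Depot differences in wild-type mice were compared for the genes that act with the members. In females, 14.1% of the 12944 genes tested differed between depots (limma, adjusted p under 0.05). Of the 5 members that passed the filter 2 were called, Glycam1 and Ccl19, both lower in visceral tissue. Since the depots chose the members, nothing is read from that count, and Glycam1 passed the filter only through the subcutaneous samples of the females. Of 56 measured genes on 6 lists of receptors, organising genes, venule, reticular, lymphatic and sinus genes, 44 were tested and 14 were called, 4 higher and 10 lower in visceral tissue. The median difference of the 44 genes was -0.18, against 0.06 over all genes tested. The count was 4 without mouse 140 and 9 without mouse 170. Here and below, counts in alternative fits are given without the share over all genes in those fits. They show only how far a count rests on single mice or settings.

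Among the receptors in wild-type females, Ccr7, which binds Ccl19 and Ccl21, was lower in visceral tissue by a difference of -0.69 (SE 0.17, adjusted p = 0.0182 by limma). Itga4, 1 chain of the integrin that binds Madcam1, was lower too (-1.06, SE 0.18, adjusted p = 0.00180 by limma). Itgb7, the other chain of that integrin, was not called (means 7.30 in visceral and 7.52 in subcutaneous tissue), nor was Tnfrsf11a (6.44 and 6.36). Tnfrsf11b, the decoy receptor of Tnfsf11, was higher in visceral tissue (1.07, SE 0.26, adjusted p = 0.0159). Among organising genes, Il7r, the interleukin 7 receptor chain of T cells and of lymphoid tissue inducer cells, differed by -2.72 (SE 0.30, adjusted p = 6.66e-05) and the lymphotoxin gene Ltb by -1.60. Cr2, the complement receptor of B cells and follicular dendritic cells, differed by -3.01, and Fcer2a, an IgE receptor gene of the same cells, by -1.29. The Cr2 mean was 7.26 in female subcutaneous samples. In female visceral, male visceral and male subcutaneous samples it was 4.25, 4.34 and 4.36, under the filter. Cr2 was tested through the group where it is high, so its difference is a description. The sinus macrophage genes Marco and Timd4 were lower by differences of -1.27 and -1.05. Marco means of wild-type males were 4.76 in visceral and 4.93 in subcutaneous tissue, under the filter, so its difference is a description too. Of 10 tested genes of high endothelial venules only Selp, for P-selectin, was called, and it was higher in visceral tissue (0.83), as was the lymphatic vessel gene Lyve1 (1.19). The 10 venule genes tested, which do not include Glycam1, had a median difference of -0.09. B cell genes (10 of 10 tested), T cell genes (10 of 10) and mammary epithelial genes (9 of 10) were called lower in visceral tissue in the same samples, and their part in the differences above was not tested. Of the 11 B cell genes measured, 10 to 11 were above the filter in subcutaneous samples of wild-type females and 1 to 3 in their visceral samples. In wild-type males 0 to 1 were in subcutaneous and 2 to 3 in visceral samples. Many genes of these lists thus passed the filter only through female subcutaneous samples, where they are high, so their counts are no test. The B and T cell lists hold Cd79a and Cd3e, which were read beside the members throughout.

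In wild-type males 11.0% of 12944 genes differed between depots, and 3 of the 44 tested list genes were called: Chst2, a sulfotransferase gene of high endothelial venules, at -0.47, the complement gene C4b at -0.88 and Clu, for clusterin, at 1.48. That count was 1 with the mouse as a replicate block in the paired fit, and 0 without mouse 159 or without mouse 162. Of the 5 receptors tested in wild-type males limma called 0. An unadjusted p under 0.05 was found for 2 of them, and for 4281 of all 12944 genes. Of the 5 members tested, 1 was called, Ccl21a, higher in visceral tissue by 1.34 ± 1.30 (SD over 3 mice), and it was lost under the paired fit. B and T cell genes were called in 0 of 10 and 0 of 10 cases. At an unadjusted p under 0.05 were 1 and 3 of them, beside the 4281 of 12944 over all genes.

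The sexes differed in these depot differences. The interaction of depot and sex was called by limma for 7.53% of 12944 genes, and for 2 of 5 members tested, which again is no test of them. Of the 44 list genes 6 were called by limma: Il7r at -3.06 (SE 0.42, adjusted p = 0.00107), Cr2 at -2.99, Timd4 at -1.55, Ltb at -1.34, Fcer2a at -0.97 and Tnfsf13b, the B cell survival factor BAFF, at 0.85. The negative values went with subcutaneous means that were higher in females than in males (Il7r 7.86 against 4.77, Cr2 7.26 against 4.36, Timd4 6.29 against 4.74). Visceral means of these genes were alike in females and males (Il7r 5.15 and 5.11, Cr2 4.25 and 4.34, Timd4 5.24 and 5.23). Cr2 means were under the filter outside female subcutaneous samples, so its value is a description. The male subcutaneous means of Il7r and Timd4 were under the filter too, so the size of their values is a description as well. The count of called list genes was 1 without mouse 140 or 169, and 2 without mouse 162. B cell genes were called in 7 of 10 and T cell genes in 8 of 10 cases, beside mammary genes in 7 of 10. Many of them passed the filter only through female subcutaneous samples, so these counts are no test either.

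**Figure D5:**
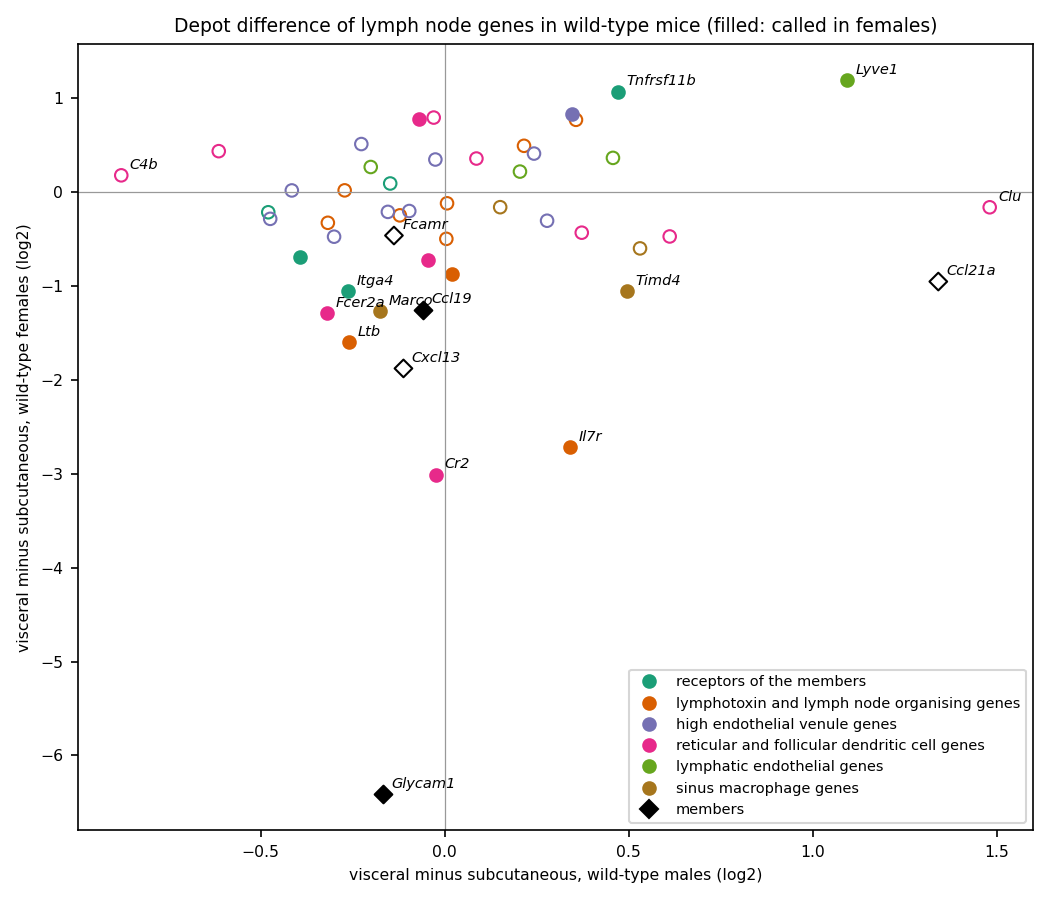
Visceral minus subcutaneous difference (log2) in wild-type females (y axis) against that in wild-type males (x axis) for the members (diamonds) and for the tested genes of 6 lymph node lists (circles, coloured by list; filled where called in females). Glycam1 lies at -6.42 in females and near 0 in males, where both depots are under the filter, and Ccl21a at -0.95 and 1.34.

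The same comparison in aP2-Tagln2 mice gave other counts. In females, 0 of 6 tested members, 0 of 47 list genes and 0% of 13095 genes passed the threshold in limma. An unadjusted p under 0.05 was found for 1 of the 47, and for 233 of all 13095 genes. Without mouse 60 the list count was 0 as well. The mean Glycam1 difference there was -2.39 ± 3.64 (SD, n = 3), and -3.27 over the 2 mice without mouse 60. Without that mouse the difference of Ccl19 was -0.35 in place of -0.32, that of Cxcl13 -0.85 in place of -1.44 and that of Ccl21a 1.10 in place of 0.61. In males 11.3% of 13095 genes were called, and 7 of 47 list genes. Ccr7 was the only receptor called among the 5 tested, at -1.45 (SE 0.29, adjusted p = 0.0193), a lower visceral level. Ltb (-2.02), Tnfsf14 (-0.74), Map3k14 (-0.87) and Chst2 (-0.68) were also lower, and the tumour necrosis factor receptor gene Tnfrsf1a (1.43) and the lymphatic gene Mmrn1 (1.68) higher, in visceral tissue. That count was 0 without mouse 106 or without mouse 130, 14 without mouse 158, 12 without mouse 135 and 1 without mouse 173. Of the 6 members tested 1 was called, Ccl19, at -2.11 ± 0.72 (SD over 3 mice). The interaction of depot and sex was called for 0.00764% of 13095 genes and for 0 of 47 list genes. Of the 47, 7 had an unadjusted p under 0.05, as had 1241 of the 13095. A difference between the sexes was therefore not detectable in these mice. Beside these counts, T cell genes were called lower in 5 of 9 and B cell genes in 2 of 9 cases in males. Of 11 adipocyte genes tested there, 6 were called higher in visceral tissue (median difference 0.89), and their part in the counts was not tested.

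Genotype in subcutaneous tissue was compared within each sex. In females the aP2-Tagln2 mean was lower than the wild-type mean for Glycam1 (5.99 ± 3.69 against 9.99 ± 0.88), Cxcl13 (7.26 ± 2.33 against 9.43 ± 1.37), Ccl21a (7.17 ± 1.01 against 8.79 ± 0.65) and Ccl19 (4.60 ± 0.66 against 5.35 ± 0.55). These differences turned on mice 173 and 60, since mouse 135 lay within the wild-type range for each of the 4 genes. Without mouse 60 the Glycam1 difference was -3.13 in place of -4.00, that of Cxcl13 -1.26 in place of -2.18, that of Ccl21a -1.28 in place of -1.62 and that of Ccl19 -0.57 in place of -0.75. The test called 0.00763% of 13101 genes, 0 of 6 members and 0 of 48 list genes. An unadjusted p under 0.05 was found for 7 of the 48, and for 244 of the 13101.

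In males the aP2-Tagln2 mean was the higher one: 6.60 ± 0.81 against 4.80 ± 0.31 for Ccl19, 9.90 ± 1.48 against 7.32 ± 1.27 for Cxcl13, 8.52 ± 1.39 against 7.02 ± 0.75 for Ccl21a and 5.96 ± 2.06 against 3.82 ± 0.18 for Glycam1. Ccl19 did not overlap between these genotypes, and the other 3 genes did, through mouse 158. The share of all genes without overlap was not counted, so nothing is read from this. Limma called 0% of 13101 genes, 0 of 6 members and 0 of 48 list genes. Of the 48, 25 had an unadjusted p under 0.05, as had 1700 of the 13101. The list count was 3 with the mouse as a replicate block over the arrays of both depots. It was 19 without mouse 158 and 16 without mice 158 and 159. The 11 B cell genes and 10 T cell genes had median differences of 2.09 and 1.46, beside -0.18 for mammary genes. Adipocyte genes had a median difference of -0.58, with 10 of 11 lower in aP2-Tagln2 males and 4 at an unadjusted p under 0.05 (0 were called by limma). Their part in the differences was not tested.

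The opposite directions in females and males were compared by the interaction of genotype and sex. Limma called it for 0% of 13101 genes and 0 of 48 list genes. Of the 48, 23 had an unadjusted p under 0.05, as had 1613 of the 13101. The count of called list genes was 12 with the mouse as a replicate block over the arrays of both depots. It was 20 without mouse 158, 18 without mice 158 and 159 and 10 without mouse 135. Among the receptors Cxcr5 had an interaction of -2.67 (SE 0.59, adjusted p = 0.218) and Ccr7 one of -1.45 (SE 0.40, adjusted p = 0.221). In visceral tissue, genotype was called for 0% of 12706 genes in females and 0% in males, and for 0 of 45 list genes in each. At an unadjusted p under 0.05 were 4 and 1 of the 45, beside 408 and 436 of the 12706. Of the members only Ccl21a, Cxcl13 and Fcamr passed the filter there. Visceral Cxcl13 means of aP2-Tagln2 and wild-type males were 8.03 ± 0.77 and 7.20 ± 0.66, whose ranges overlap.

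The receptors showed sample by sample which partners of the members were present. Cxcr5, the receptor for Cxcl13 on B cells, was above the filter in 4 of 24 arrays, the subcutaneous samples of mice 130 (6.43), 106 (6.40), 169 (6.37) and 140 (5.94), and lay between 3.96 and 4.96 elsewhere. These are the 4 samples with the highest Cd79a. Ccr7 was above the filter on 24 of 24 arrays, with 6.18 (mouse 173, subcutaneous) the lowest value and 7.90 (mouse 106, subcutaneous) the highest. Itga4 ran from 6.50 to 8.93, with its 6 highest values in the 6 subcutaneous samples rich in Cd79a, and Itgb7 from 6.95 to 8.04. Tnfrsf11a, the receptor for Tnfsf11, lay between 5.81 and 6.98 on all arrays. Tnfrsf11b was above the filter on 13 of 24 arrays, and Ackr4, a scavenging receptor for Ccl19 and Ccl21, on 2.

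The genes whose pattern lay nearest to each member were found by Pearson's r over the 24 arrays among 13687 genes above the filter in at least 3 arrays. The arrays share mice, so r is a description. For Ccl19 they were Tnfrsf4 (OX40, 0.919), Rinl (0.918), Bst1 (0.914), Il21r (0.907) and Septin1 (0.906). For Cxcl13 they were Marchf1 (0.904), Coro1a (0.864), Arhgdib (0.862), Cd53 (0.856) and Cmah (0.854). For Glycam1 they were Cbx3 (0.899), Fcer2a (0.866), Btla (0.862), Ogfrl1 (0.855) and Cd22 (0.852), so that genes of B cells such as Fcer2a and Cd22 lay nearer to it than any other member did. For Ccl21a the first 4 were its copies, and the fifth was Lims1 (0.839). Tnfsf11 lay nearest to Sema4b (0.872), Fcamr to Cnbd2 (0.846) and Madcam1 to Acr (0.824). These places were loose: with Spearman's rho in place of r, 2 of the 5 genes stayed for Ccl19, 1 for Cxcl13 and 0 for Glycam1. Cd79a itself took place 12 for Cxcl13, 90 for Ccl21a, 147 for Ccl19 and 164 for Glycam1. Among the members, Ccl19 and Cxcl13 had the highest r over all arrays (0.772) and Ccl21a and Madcam1 the lowest (-0.30).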

How the data were processed

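Total RNA of 24 samples was biotin-labelled for expression arrays. The deposited values are log2 intensities made by the authors with RMA (background correction, normalization between arrays, summary of probes), per the submitters' processing notes, which also name limma. The log base was inferred from the values, which reach 13.1, and the genome build of the probe sets is not given in the sources used here. Of 22142 probe sets, 19527 name 1 gene symbol in the platform annotation and cover 19494 genes. For 33 genes with several, the probe set of highest mean was used. A gene was tested where it exceeded its array's 40th percentile in at least 3 arrays of a fit. The models were limma fits (version 3.58.1, lmFit and eBayes, R 4.3.3) of the 12 arrays of a genotype (for depot) or of a depot (for genotype), with Benjamini-Hochberg adjustment over all genes tested and a threshold of 0.05. The scripts were tested on simulated data. The members and the gene lists were chosen with earlier results of these data known. Named are the members, their receptors, Cd79a, Cd3e, Tagln2, up to 3 genes of lowest p of a list spoken of, and the 5 nearest genes per member. Further list genes were named after their values were seen. A mouse gave both depots, so its number pairs 2 samples as the same animal, and the pairs' deviations correlated between -0.26 and 0.20, with 5 of 12 above 0.1. Alternatives were the mouse as a block, other filters and scalings, limma's trend and robust options, and leaving out each mouse. Arrays have no read depth, and their number limits the precision.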

Additional observations from a re-analysis of the deposited data

Results flagged for a closer look

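The results here were noted because the visceral minus subcutaneous difference of wild-type females differed from that of wild-type males by limma's interaction test. The members among them were chosen on these arrays, and Cd79a and Cd3e were used beside them to follow lymphoid tissue, so the values of these genes are a description. Glycam1 differed by -6.25 between the sexes (visceral and subcutaneous means 3.58 and 9.99 in females, 3.66 and 3.82 in males, where both depots were under the filter). Ccl21a differed by -2.30, with a lower visceral mean in females (7.83 against 8.79) and a higher visceral mean in males (8.37 against 7.02). For Cd79a the value was -3.27, lower in visceral tissue in 3 of 3 females and higher in 3 of 3 males. For Cd3e it was -1.94, for Il7r -3.06, for Cr2 -2.99, for Timd4 -1.55, for Ltb -1.34, for Fcer2a -0.97 and for Tnfsf13b 0.85. Cr2 means were under the filter in these groups apart from female subcutaneous samples, so its value is a description too. The male subcutaneous means of Il7r (4.77) and Timd4 (4.74) were also under the filter, so the size of their values is a description. With groups of 3 samples, no single sample was tested for standing apart from its group.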

How the results depend on the processing

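The counts of called list genes depended on single mice more than on settings. Leaving out each mouse in turn gave 4 to 14 called genes for depot in wild-type females (14 with all mice), 0 to 4 in wild-type males (3), 1 to 8 for their interaction (6), 0 to 14 for depot in aP2-Tagln2 males (7), 0 to 19 for genotype in subcutaneous tissue of males (0) and 0 to 20 for its interaction with sex (0). With the mouse as a replicate block the counts were 1 in wild-type males, 3 for genotype in subcutaneous tissue of males and 12 for the interaction with sex, and the block changed no other count by over 1.5 times. For genotype the block was fitted over all 24 arrays, at an estimated correlation within mice of -0.03. A second quantile normalization gave 3 genes and centring on the median 4 for depot in aP2-Tagln2 males. Without mice 158 and 159, an alternative chosen after the data were seen, the counts were 0 for depot in wild-type males, 14 in aP2-Tagln2 males, 16 for genotype in subcutaneous tissue of males and 18 for the interaction. The share called over all genes in each setting is not given beside these counts, so nothing about the lists is read from them. The causes were not tested. Apart from single mice left out, 68 alternative counts equalled the main count or lay within 1.5 times of it, 5 lay above and 4 below. The 68 include counts of 0 beside a main count of 0, so they do not show that called genes were stable. Ccl19 of aP2-Tagln2 males was not called without mouse 106 or 130, and Ccl21a of wild-type males lost its call in several settings. No member difference past its threshold changed sign.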
